A study of Mus musculus with 38 samples.

Results

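The comparison sets T cells recovered from the inflamed central nervous system (CNS, brain and spinal cord) against T cells of the same kind from the draining lymph node (dLN). Its members are the libraries of CHD1 wild-type cells, 3 from the CNS and 3 from the dLN, 6 of the 38 libraries in the series. Both groups hold Chd1 WT cells on a C57/B6 background that carry 2D2, a transgenic T cell receptor for a myelin protein. The cells were naive when isolated, were made into inflammatory Th17 cells (Th17Inf) in culture, and were transferred into WT mice, where they induced experimental autoimmune encephalomyelitis (EAE), a mouse model of multiple sclerosis. At the peak of disease 2000 cells positive for 2D2 were sorted per library, and their polyadenylated RNA was amplified for 12 cycles. The CNS was perfused, cut up, digested with collagenase D (2.5 mg/ml, 37 °C, 20 minutes) and passed over a Percoll gradient before sorting, whereas lymph nodes were dispersed mechanically. Each tissue fills its own table, so tissue, digestion and table cannot be told apart in any value below. The other libraries of the same fit were CHD1 cKO (conditional knockout) cells from the same tissues (4 and 4). Beside them, 2 further groups served for description. The first was WT Th17 cells cultured without treatment, from the IL-23R experiment (4 libraries). The second was WT cells of the glucocorticoid receptor (GR) experiment from the CNS (4 libraries). The labels do not say that libraries came from separate animals, so p-values measure the spread between these libraries.

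As background, a T cell that circulates through lymph nodes carries CCR7, a receptor that guides its entry, and the sphingosine receptor S1PR1, which lets it leave, and the factors KLF2 and TCF1 keep this program and a quiescent, long-lived state going. A T cell that meets its antigen in an inflamed tissue shuts much of that program down and turns on immediate early genes, cytokines, chemokines, co-inhibitory receptors and glycolysis. In EAE, Th17 cells that reach the CNS meet microglia and incoming monocytes, which present myelin antigen to them again.

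Libraries held 5376710 to 5866696 counts in the CNS and 3148634 to 4679902 in the dLN, of which 18.3 to 32.6% and 41.8 to 54.4% were satellite repeat and ribosomal RNA features. Levels are therefore given as scaled CPM, CPM (a gene's count over the library total, brought to a common total) with totals scaled by the trimmed mean of M values (TMM), on which 3 counts are worth 0.439 to 0.548 in the CNS and 0.828 to 0.973 in the dLN. These limits, and counting intervals below, cover counting error only. CNS library 3 stood apart in its satellite share (19.1%, against 3.36 and 4.23% in the others). The 2D2 beta-chain segment Trbv16 took at least 99.2% of Trbv counts in each of the 6 libraries. Cd3e stood at 736, 639 and 684 scaled CPM in CNS libraries 1, 2 and 3 and at 575, 551 and 618 in dLN libraries 1, 2 and 3, the order in which library values are given throughout. Chd1, which is intact by label in both groups, stood at 4.39, 5.08 and 4.2 in the CNS and 6.07, 5.51 and 5.77 in the dLN (log2 fold change -0.34 ± 0.29, SE, adjusted p = 0.48). Markers of other cells did not match between the tissues: 25 microglia and macrophage markers summed to 4998 to 6329 scaled CPM in the CNS libraries and 159 to 229 in the dLN libraries, and 21 B cell and plasma cell markers to 41.7 to 69.3 and 183 to 276.

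Of 11589 genes tested, 1367 (11.8%) were higher in the CNS and 571 (4.93%) lower, 1938 (16.7%) in all, at a Benjamini-Hochberg adjusted p under 0.05 in edgeR's two-sided quasi-likelihood test. The shares of 11.8 and 4.93% are the background for each count of list members below. The median log2 fold change (CNS over dLN) over all genes was -0.01. Changes of at least 1 log2 unit made up 960 of the higher and 293 of the lower calls. The number of lower genes fell to 316, 269 and 345 without CNS library 1, 2 or 3 and to 294 and 291 without dLN library 1 or 3. The number of higher genes stayed between 1018 and 1151 when any 1 of the 6 libraries was left out.

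To keep T cell genes apart from the RNA of other cells, genes were split by their level in the cultured Th17 cells. Levels in culture, here and below, are CPM with repeat and ribosomal RNA left out of the total. They are not scaled CPM, so they do not compare directly with the CNS and dLN levels. Of the 8701 genes at 5 CPM or more there, 846 (9.72%) were higher in the CNS and 402 (4.62%) lower, with a median log2 fold change of -0.01. Of the 862 genes under 1 CPM in culture, 336 (39.0%) were higher and 43 (4.99%) lower, with a median of 1.44. The split is a description: a gene can be silent in culture and active in T cells of a tissue, and a gene active in culture can also be made by macrophages. The part of RNA from other cells was not tested for any gene below, also where the text does not repeat this.

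Genes of lymph node homing and egress were lower in the CNS. Of 12 tested, 7 fell and 1 rose, against 4.93 and 11.8% of all genes, with a median log2 fold change of -0.83. Without CNS library 1 or dLN library 3, 4 fell. S1pr1, the egress receptor (ENSMUSG00000045092.8; chr3:115710433-115715072, minus strand; positions of genes are on mm10), stood at 9.21, 8.78 and 10.6 scaled CPM in the CNS libraries and 63.2, 67.8 and 78.8 in the dLN libraries, with no overlap (log2 fold change -2.88 ± 0.32, adjusted p = 2.1e-05). Its relative S1pr4 fell less (50.01, 41.9 and 43.1 against 90.3, 76.8 and 93.2, log2 fold change -0.95 ± 0.14, adjusted p = 0.00034). Klf2, the transcription factor that drives S1pr1, was at low levels of 1.02, 1.85 and 1.1 in the CNS and 4.97, 4.86 and 6.64 in the dLN (log2 fold change -2.03 ± 0.50, adjusted p = 0.012, just above 0.05 without CNS library 1 or dLN library 3).

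Ccr7, the receptor for lymph node chemokines, stood at 14.8, 73.9 and 65.1 scaled CPM in the CNS and 194, 130.3 and 196 in the dLN. CNS library 1 was well under the other CNS libraries, which differed among themselves by less, and the log2 fold change was -1.76 ± 0.47 (adjusted p = 0.018). The call was lost without dLN library 1 or 3 (adjusted p = 0.059 in both). Gpr183, the oxysterol receptor that positions cells within lymphoid tissue, fell from 19.9, 17.2 and 30.3 to 9.36, 11.4 and 10.8 (adjusted p = 0.021, lost without any CNS library or dLN library 3), and Itgb7, an integrin chain used in gut homing, from 366, 351 and 372 to 189, 235 and 238 (adjusted p = 0.013, lost without CNS library 1). The 1 homing gene that rose was Spns2, a sphingosine phosphate transporter (log2 fold change 4.02, adjusted p = 0.014), which was named after its values were seen. Its call was lost without CNS library 2, dLN library 2 or dLN library 3, and in the fit of the 6 WT libraries alone.

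Genes of the stem-like, quiescent T cell state fell with them. Of 17 tested, 11 fell and 0 rose by edgeR (13 and 0 by DESeq2, 13 and 1 at an unadjusted p under 0.05), with a median log2 fold change of -1.37. Without dLN library 1 and without dLN library 3, 7 and 6 fell. Klf2 and Ccr7 are on both lists. Tcf7, which encodes TCF1, stood at 47.5, 41.1 and 41.9 scaled CPM in the CNS and 128, 107 and 171 in the dLN (log2 fold change -1.64 ± 0.22, adjusted p = 0.00013). Il7r, the receptor for the survival cytokine IL-7, fell from 154, 164 and 277 to 71.1, 45.7 and 51 (log2 fold change -1.82 ± 0.32, adjusted p = 0.0012). Cd27, a costimulatory receptor of naive and memory cells, fell from 117, 85.3 and 99.6 to 30.6, 42.7 and 39.3 (adjusted p = 0.0015). Dapl1 was almost absent from the CNS cells (0.439, 0 and 0 against 6.63, 9.4 and 12.4), a ratio of dLN to CNS of 59.2 (95% counting interval 19.6 to 292). Txnip, a brake on glucose uptake (83.1, 77.8 and 98.2 in the CNS and 109, 68.7 and 146 in the dLN, adjusted p = 0.31), and Satb1, a chromatin organiser (41.5, 58.8 and 58.5 in the CNS and 90.8, 87.9 and 119 in the dLN, adjusted p = 0.059), did not pass the test.

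Among the 8701 genes at 5 CPM or more in cultured Th17 cells, 402 (4.62%) were called lower, as given above. Of these, 225 were eligible under the rule for naming genes given below. They fell without overlap between groups and averaged at least 20 scaled CPM in the dLN. By the same rule, with the level taken in the CNS, 573 genes rose. Beside S1pr1 and Il7r, the genes with large falls included Rasgrp2, Igfbp4, Mir142hg, Scml4, Pik3ip1, Mypopos, Itga4, Ripor2 and Nebl. Rasgrp2, the activator of RAP1 that acts in integrin-based adhesion, stood at 8.92, 8.93 and 17.9 in the CNS and 104, 91.1 and 122 in the dLN (log2 fold change -3.16 ± 0.26, adjusted p = 1.3e-06). Pik3ip1, an inhibitor of PI3 kinase, stood at 5.7, 12 and 8.77 in the CNS and 51.1, 41.8 and 76.5 in the dLN (log2 fold change -2.68 ± 0.29, adjusted p = 1.8e-05). Igfbp4 was uneven in the CNS, at 8.92, 49.3 and 51.4 against 235, 340.4 and 278 (log2 fold change -2.97 ± 0.77, adjusted p = 0.016, 0.059 without CNS library 1). Ripor2 fell from 80.1, 67.4 and 105 to 21.9, 19.4 and 22.8, and Scml4 from 37.5, 34.4 and 57.1 to 4.97, 7.24 and 7.49, both without overlap. Mir142hg, the host transcript of miR-142, ran from 0 to 7.02 in the CNS and from 9.52 to 35.6 in the dLN (adjusted p = 0.016, lost without CNS library 2 or dLN library 1). Nebl stood at 12.1, 5.85 and 7.49 in the CNS and 28.7, 29.2 and 31.7 in the dLN. Mypopos stood at 7.46, 6.62 and 5.67 and 28.7, 29.5 and 29.4, and is annotated as antisense, so its counts cannot be told apart from those of an overlapping gene where strand was not used.

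**Figure D1:**
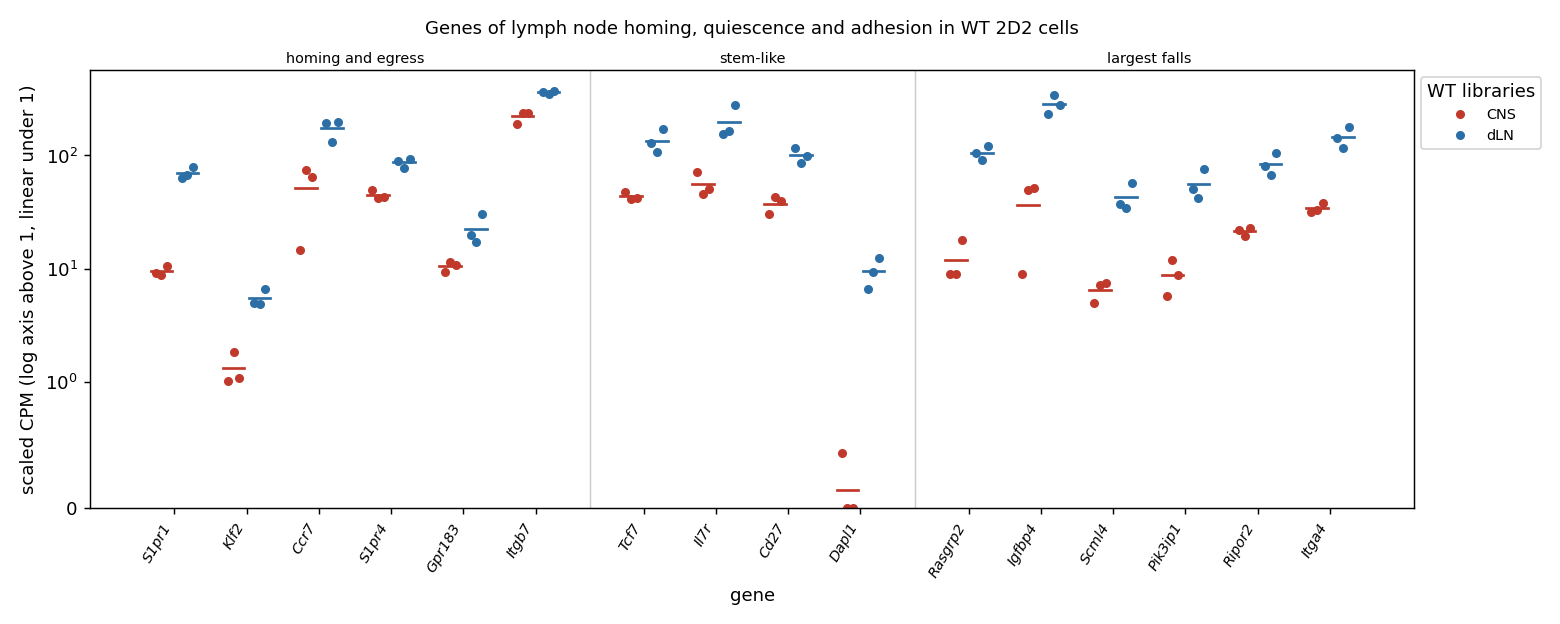
Levels of 16 genes of homing, quiescence and adhesion in the 6 WT libraries (vertical axis scaled CPM, log above 1; points are libraries, bars are means of 3). The dLN points lie above the CNS points for each gene shown, and Ccr7 and Igfbp4 have 1 CNS library under the other CNS libraries.

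Adhesion genes moved in both directions. Of 21 integrins and adhesion molecules tested, 5 rose (23.8%) and 4 fell (19.0%), against 11.8 and 4.93% of all genes (median log2 fold change 0.36). Without CNS library 1 both counts were near the shares over all genes. The higher count was 3 without CNS library 1 or dLN library 2, and the lower count was 1 without CNS library 1 and 2 without CNS library 3, dLN library 1 or dLN library 3. Itga4, the alpha-4 chain of the integrin VLA-4 with which T cells cross the blood-brain barrier, was lower in cells already in the CNS (ENSMUSG00000027009.18; chr2:79255426-79333123, plus strand). It stood at 31.7, 33.1 and 38.2 scaled CPM there and 142, 116 and 178 in the dLN (log2 fold change -2.08 ± 0.24, adjusted p = 2.7e-05). Its other beta partner is encoded by Itgb7, which fell too, as given above. The LFA-1 chains rose: Itgal from 125, 90.8 and 126 to 224, 195 and 192 (log2 fold change 0.84 ± 0.18) and Itgb2 from 192, 188 and 188 to 377, 334 and 296 (log2 fold change 0.83 ± 0.16). Icam1, their ligand, rose from 20.7, 14.9 and 20.5 to 34.8, 47.6 and 43 (adjusted p = 0.0014). Selplg, the ligand of P-selectin, stood at 409.9, 348 and 375 in the CNS and 242, 225 and 302 in the dLN (log2 fold change 0.56 ± 0.15, adjusted p = 0.019, lost without CNS library 1, dLN library 1 or dLN library 2).

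Of 11 chemokine receptors of inflamed tissue tested, 6 rose and 0 fell by edgeR (6 and 0 by DESeq2, 7 and 0 at an unadjusted p under 0.05). Ccr8 stood at 213, 215 and 212 scaled CPM in the CNS and 17.7, 21.7 and 19.6 in the dLN. The CNS libraries lay close together and above each dLN library (log2 fold change 3.44 ± 0.40, adjusted p = 3.1e-05). Cxcr6, whose ligand CXCL16 is made by myeloid cells, rose from 112, 76.8 and 108 to 387, 194 and 245 (log2 fold change 1.47 ± 0.30, adjusted p = 0.0032). Cxcr3, the receptor of Th1 cells for interferon-induced chemokines, stood at 68.1, 71.9 and 69.1 in the CNS and 69.9, 65.5 and 61.2 in the dLN and overlapped between the groups (log2 fold change 0.09 ± 0.30, adjusted p = 0.88). Ccr2 (-0.13, adjusted p = 0.86) and Ccr4 (-0.48, adjusted p = 0.47) did not pass the test either. Cx3cr1, the fractalkine receptor that marks microglia, was listed at 90.8, 84.6 and 63.4 in the CNS and 0, 0 and 0.289 in the dLN, and at a mean of 0.0651 CPM in cultured cells. Ccr1 and Ccrl2 rose too (log2 fold changes 2.81 ± 0.52 and 2.86 ± 0.33) and are also genes of myeloid cells. The part of the microglia and macrophage RNA in these 3 changes was not tested.

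Genes of tissue residence rose, 13 of 19 tested with 0 lower (DESeq2 16 and 0, unadjusted p under 0.05 18 and 0) and a median log2 fold change of 2.32. Of the 13 members at 5 CPM or more in cultured Th17 cells, 10 rose. Rgs1, a regulator of G protein signalling that dampens chemokine responses, stood at 419, 354 and 312 scaled CPM in the CNS and 28.7, 39.6 and 30.3 in the dLN (log2 fold change 3.46 ± 0.29, adjusted p = 1.5e-06). Rgs16, of the same family, stood at 99.4, 76.2 and 73.5 in the CNS and 0.828, 3.24 and 1.73 in the dLN (ENSMUSG00000026475.7; chr1:153740349-153745468, plus strand; log2 fold change 5.45 ± 0.48, adjusted p = 2.4e-06). Litaf rose from 8.84, 10.1 and 8.66 to 109, 73.2 and 77.7 (log2 fold change 3.24 ± 0.27, adjusted p = 1.5e-06). Bhlhe40, a transcription factor needed for pathogenic cytokine production by T cells in EAE, rose from 69.6, 60.6 and 60.3 to 211, 210.2 and 206 (log2 fold change 1.72 ± 0.35, adjusted p = 0.0034). Cd69, the surface antagonist of S1PR1 and the usual residence marker, changed least of those described, from 74.3, 71.7 and 100.2 to 126, 112 and 141 (log2 fold change 0.62 ± 0.19, adjusted p = 0.036). That call was lost without CNS library 1 or 3 or dLN library 1 or 2 (adjusted p = 0.083 to 0.132).

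Co-inhibitory receptors rose at the same time, 8 of 17 tested with 1 lower, against 11.8 and 4.93% of all genes (median log2 fold change 1.37). Lag3, which binds MHC class II (ENSMUSG00000030124.2; chr6:124904361-124911705, minus strand), stood at 143, 152 and 106 scaled CPM in the CNS and 4.42, 3.57 and 3.75 in the dLN (log2 fold change 5.08 ± 0.42, adjusted p = 1.4e-06). Pdcd1, which encodes PD-1, rose from 14.6, 13 and 13 to 101, 103 and 83.9 (log2 fold change 2.82 ± 0.45, adjusted p = 0.00052), and Ctla4 from 10.5, 7.46 and 13 to 57.8, 73.9 and 65.6 (log2 fold change 2.66 ± 0.27, adjusted p = 8.7e-06). In both genes each CNS library lay above each dLN library. Tigit rose from 22.6, 21.7 and 28.3 to 88.3, 154 and 138 (adjusted p = 0.0024), and Entpd1, which encodes the ectonucleotidase CD39, from 11, 10.7 and 11.3 to 63.3, 66.4 and 63.6 (log2 fold change 2.55 ± 0.22, adjusted p = 2.2e-06). Havcr2 (TIM-3) and Lair1 rose as well (log2 fold changes 3.70 ± 0.35 and 3.11 ± 0.30). Both are also expressed by macrophages and stood at 1.34 and 4.5 CPM in culture, and the part of macrophage RNA in them was not tested. That part was not tested for the other receptors of the list either. The receptor that fell was Btla, from 26.8, 27.2 and 29.2 to 14.6, 19.7 and 15.5 (log2 fold change -0.74 ± 0.16, adjusted p = 0.0059). Vsir (0.42, adjusted p = 0.19) and Cd200 (1.22, adjusted p = 0.057) did not pass the test.

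Costimulation and TNF family genes gave 12 higher and 1 lower of 18 tested (median log2 fold change 1.43). Tnfrsf4 (OX40) stood at 222, 432 and 424 in the CNS and 101, 73.3 and 79.95 in the dLN (log2 fold change 2.08 ± 0.35, adjusted p = 0.00075), with CNS library 1 under the others. Tnfrsf18 (GITR) rose from 93.3, 83 and 81.1 to 238, 295 and 314 (adjusted p = 3.4e-05), Icos from 42, 40.2 and 37.5 to 103, 98.3 and 95.6 (adjusted p = 0.0001), and Lta, which encodes lymphotoxin alpha, from 10.2, 9.73 and 15.3 to 59.5, 42.2 and 39.3 (adjusted p = 7.6e-05). Ltb, its membrane partner, stood at 403, 317 and 320.4 in the CNS and 453, 359.9 and 525 in the dLN with overlap (log2 fold change -0.36 ± 0.24, adjusted p = 0.35). Cd40lg, the ligand through which T cells license antigen-presenting cells, stood at 109, 98.9 and 109 in the CNS and 63.2, 74.2 and 62.6 in the dLN. Its groups did not overlap, but it missed the threshold (log2 fold change 0.66 ± 0.23, adjusted p = 0.068).

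**Figure D2:**
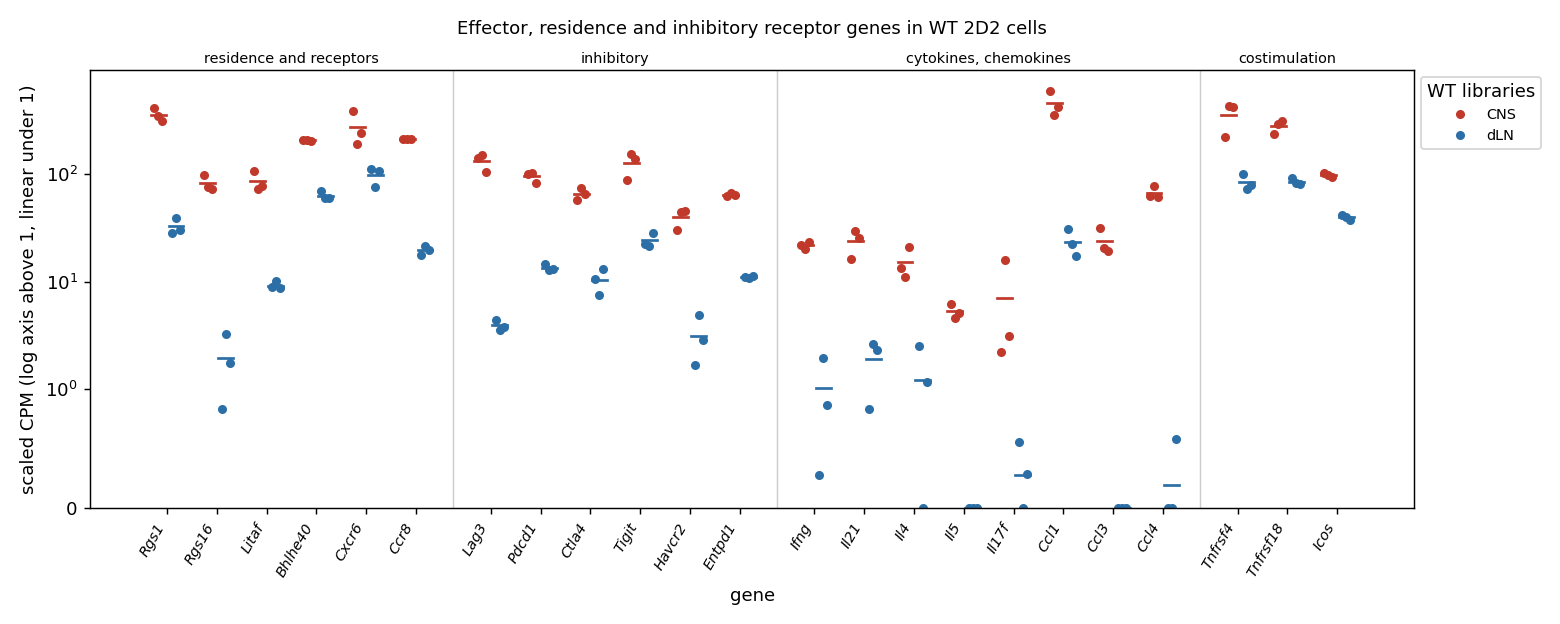
Levels of 23 effector, residence, inhibitory and costimulatory genes in the 6 WT libraries (vertical axis scaled CPM, log above 1, with 0 at the base; points are libraries, bars are means of 3). CNS points lie above dLN points for each gene shown, and Il17f is carried by 1 CNS library at 15.9.

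The signature cytokine of Th17 cells was nearly absent from both tissues. Il17a stood at 0.585, 0.462 and 0.914 scaled CPM in the CNS libraries (12 counts in all) and at 0 in each dLN library, and did not pass the filter on low counts, whereas cultured Th17 cells had a mean of 71.2 CPM. Csf2, which encodes GM-CSF, gave 6 counts in the CNS libraries and 0 in the dLN libraries, Il22 gave 2 and 0, and Il23r 9 and 0, and none of these 3 was tested. Il17f stood at 2.19, 15.9 and 3.11 in the CNS and 0.552, 0 and 0.289 in the dLN, a ratio of 24.3 (95% counting interval 8.15 to 119.5), and without CNS library 2 it missed the threshold (adjusted p = 0.091).

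Of the whole Th17 list, 14 of 20 members were tested, 8 rose and 1 fell, with a median log2 fold change of 1.67. Il21, which promotes B cell help and Th17 growth, rose from 0.828, 2.59 and 2.31 to 16.2, 29.6 and 25.8 (log2 fold change 3.65 ± 0.65, adjusted p = 0.0013). Maf, an inducer of IL-10 and IL-21, rose from 3.87, 3.24 and 2.89 to 23, 16.5 and 18.1 (adjusted p = 0.00066), Hif1a from 45, 62.6 and 63.8 to 137, 188 and 199.8 (adjusted p = 0.0019) and Stat3 from 59.4, 58.4 and 55.7 to 95.8, 104 and 91.2 (adjusted p = 0.0015). Batf, a pioneer factor of the Th17 program, stood at 71.1, 108 and 90.1 in the CNS and 87.2, 82.7 and 77.1 in the dLN and overlapped (adjusted p = 0.69). The gene that fell was Il6ra, the IL-6 receptor chain (log2 fold change -1.21, adjusted p = 0.012), which was named after its values were seen. Without CNS library 1 or dLN library 3, 0 genes of the list fell.

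Interferon gamma was found in the CNS cells. Ifng (ENSMUSG00000055170.4; chr10:118441046-118445892, plus strand) stood at 21.8, 20.3 and 23.2 scaled CPM in the CNS and 0.276, 1.95 and 0.866 in the dLN, where 10 counts were found in all 3 libraries. The CNS libraries lay close together and far above each dLN library (log2 fold change 4.43 ± 0.76, adjusted p = 0.00093). Of 15 Th1 genes tested, 7 rose and 0 fell (DESeq2 7 and 0, unadjusted p under 0.05 9 and 0), and 4 rose without CNS library 1, CNS library 3, dLN library 2 or dLN library 3. Il12rb2, the inducible chain of the IL-12 receptor, rose from 23.7, 18.2 and 16.5 to 64.3, 56.7 and 59 (adjusted p = 0.003), and Ifngr1, the interferon gamma receptor, from 115, 80.4 and 92.9 to 278, 225 and 225 (adjusted p = 0.0012). Tbx21, which encodes the Th1 factor T-bet, stood at 61.7, 60.1 and 53.6 in the CNS and 36.2, 33.4 and 26.6 in the dLN without overlap but above the threshold (log2 fold change 0.87 ± 0.30, adjusted p = 0.061).

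Low levels of Th2 cytokines were found in the CNS too. Of 10 Th2 genes tested, 4 rose and 0 fell (DESeq2 6 and 0, unadjusted p under 0.05 7 and 0). Il4 stood at 13.5, 10.9 and 21.2 in the CNS and 2.48, 0 and 1.15 in the dLN (log2 fold change 3.56 ± 0.64, adjusted p = 0.0024), and Il5 at 6.14, 4.62 and 5.12 in the CNS and 0, 0 and 0 in the dLN, which is at least 18-fold higher with 3 counts allowed over the dLN group. Gata3, the Th2 factor, stood at 66.2, 54.7 and 57.2 in the CNS and 45.3, 43.1 and 48.5 in the dLN (log2 fold change 0.38 ± 0.16, adjusted p = 0.12). Among 14 genes of regulatory T cells and IL-10, 6 rose and 0 fell (DESeq2 9 and 0, unadjusted p under 0.05 10 and 0), and beside Ctla4, Tnfrsf4 and Tnfrsf18 they included Il2ra, the IL-2 receptor alpha chain, at 47.4, 79.6 and 79.9 in the CNS and 27.6, 34 and 30.02 in the dLN (adjusted p = 0.018). The Il2ra call was lost without CNS library 2, CNS library 3, dLN library 1 or dLN library 3.

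By its median, the chemokine list differed most of the T cell lists. Of 11 genes, 9 were tested and 9 rose, with a median log2 fold change of 7.88, or 5.52 with genes at 0 in the dLN set to their bound. Ccl1, the ligand of CCR8, stood at 603, 361 and 424 scaled CPM in the CNS and 30.6, 22.4 and 17.3 in the dLN (log2 fold change 4.30 ± 0.36, adjusted p = 1.5e-06). Ccl3 (ENSMUSG00000000982.5; chr11:83647844-83649355, minus strand) stood at 31.4, 20.6 and 19.4 against 0, 0 and 0, at least 82-fold higher with 3 counts allowed over the dLN group. Its neighbour Ccl4 (ENSMUSG00000018930.3; chr11:83662584-83664683, plus strand) stood at 62.6, 78.6 and 61.1 against 0, 0 and 0.577, a ratio of 344 (95% counting interval 95 to 2844). Both were counted in cultured Th17 cells (35.7 and 59.5 CPM), and both are also made by microglia and macrophages. Ccl5 stood at 526, 373 and 470.0 in the CNS and 215, 55.4 and 154 in the dLN (adjusted p = 0.041, above 0.05 when any library but dLN library 1 was left out). Ccl9 and Cxcl16, which are myeloid chemokines and stood under 1 CPM in culture, were at 17.5, 18 and 51.5 and 54.1, 59.8 and 41.7 in the CNS. Of these 9 genes, 5 stood under 1 CPM in culture, and the part of myeloid RNA in the list was not tested.

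Receptors for cytokines and their feedback inhibitors gave 13 higher and 1 lower (Il7r) of 23 tested, with a median log2 fold change of 1.02. Il2rb, the shared beta chain of the IL-2 and IL-15 receptors, stood at 288, 303 and 321 in the CNS and 156, 159.5 and 164 in the dLN (log2 fold change 0.93 ± 0.14, adjusted p = 0.00032), whereas the common gamma chain Il2rg stood at 702, 598 and 654 in the CNS and 507, 441 and 571 in the dLN (adjusted p = 0.19). Cish, a STAT5 target that restrains receptor signalling, rose from 51.1, 73.9 and 67.8 to 153, 147 and 188 (adjusted p = 0.00044), and Il10ra, the IL-10 receptor, from 3.31, 2.27 and 5.2 to 34.5, 30.5 and 36.4 (adjusted p = 1.5e-05). In the proximal machinery of the T cell receptor, 3 of 25 genes rose (12.0%) and 2 fell (8.0%), with a median of 0.17. Over all genes these shares were 11.8 and 4.93%. Zap70, the kinase recruited to the receptor, rose from 137, 124 and 131 to 218, 234 and 222 (log2 fold change 0.78 ± 0.14, adjusted p = 0.0017). Dgka, a kinase that removes diacylglycerol and dampens receptor signalling, fell from 234, 208 and 302 to 101, 103 and 103 (log2 fold change -1.28 ± 0.17, adjusted p = 0.0001). With each of the 6 libraries left out in turn, 1 gene of this list rose, and 1 fell except without dLN library 1, where 2 did. The call of Ptpn22, a phosphatase that rose (adjusted p = 0.04), was lost in each of those 6 fits.

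NF-kB genes gave 11 higher of 20 tested, 11 also with each of the 6 libraries left out in turn, and 0 lower (DESeq2 11 and 0, unadjusted p under 0.05 13 and 0). All 20 stood at 5 CPM or more in cultured Th17 cells. Nfkbia, the inhibitor that NF-kB itself induces, rose from 199.9, 192 and 229 to 330.2, 422 and 403 (log2 fold change 0.90 ± 0.17, adjusted p = 0.0019), and the subunit Nfkb2 from 35.1, 31.4 and 37.8 to 51.3, 63 and 61.4 (adjusted p = 0.0012). Nfkb1 stood at 105, 86.1 and 96.7 in the CNS and 79, 90.8 and 91.5 in the dLN with overlap (adjusted p = 0.7). Bcl2a1b, a survival gene under NF-kB, rose from 59.1, 42.8 and 62.6 to 251, 226 and 211 (log2 fold change 2.06 ± 0.22, adjusted p = 1.3e-05). It has near-identical copies between which reads may have been split, so its level is uncertain. Bcl2l1, which encodes BCL-XL, rose from 22.4, 22.4 and 22.2 to 60.2, 56.5 and 66.2 (adjusted p = 1.5e-05), while Bcl2 stood at 30.6, 26.6 and 36.6 in the CNS and 24.3, 26.3 and 27.4 in the dLN (adjusted p = 0.4).

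Immediate early genes, which are transcribed within minutes of a stimulus, were higher in 21 of 25 tested with 0 lower (DESeq2 21 and 0, unadjusted p under 0.05 23 and 0). Their median log2 fold change was 2.72. Jun, a subunit of AP-1 (ENSMUSG00000052684.4; chr4:95049034-95052222, minus strand), stood at 94.5, 71.5 and 85.9 scaled CPM in the CNS and 0.552, 0.324 and 0.577 in the dLN, where 5 counts were found in all 3 libraries (log2 fold change 7.35 ± 0.34, adjusted p = 1.6e-08). Fos, its partner, stood at 78.8, 116 and 119 in the CNS and 0, 1.62 and 0.866 in the dLN, where 8 counts were found (adjusted p = 2.1e-07). Junb, a further AP-1 subunit, was well counted in both tissues and rose from 65.2, 62.6 and 64.1 to 551, 466 and 436 (log2 fold change 2.92 ± 0.18). Dusp1, a phosphatase that switches off MAP kinases, rose from 7.73, 4.21 and 9.81 to 179, 215 and 214 (log2 fold change 4.79 ± 0.27), and Ppp1r15a, which ends the block of translation under stress, from 6.07, 5.19 and 6.06 to 99.4, 81.3 and 96.5 (log2 fold change 3.99 ± 0.21). Nr4a1, an indicator of recent T cell receptor signals, rose from 8.01, 8.11 and 12.7 to 66.1, 81.3 and 90.8 (log2 fold change 3.04 ± 0.27). Ier2 was well counted in both tissues and rose less, from 72.6, 68.7 and 72.7 to 94, 111 and 91.9 (log2 fold change 0.47 ± 0.14, adjusted p = 0.037, lost without each library in turn). Dusp2 stood at 96.2, 106 and 97.2 in the CNS and 66.3, 58.7 and 60.9 in the dLN (adjusted p = 0.15).

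A smaller share of heat shock genes was called. Of 16 tested, 5 rose and 0 fell (DESeq2 5 and 0, unadjusted p under 0.05 6 and 0), and the median log2 fold change was 0.32. Hspa1a, an inducible HSP70, stood at 342, 203 and 295 scaled CPM in the CNS and 0, 0 and 0.289 in the dLN, where 1 count was found in all 3 libraries, a ratio of 2854 (95% counting interval 512 to 112751). Hspa1b, its near-identical neighbour, stood at 28.7, 17.3 and 19.2 in the CNS and 0, 0 and 0 in the dLN, at least 74.5-fold higher, and how reads were shared between these copies is uncertain. The constitutive Hspa8 rose from 1413, 1637 and 1443 to 2038, 2182 and 2238 (log2 fold change 0.52 ± 0.11, adjusted p = 0.0045), and the co-chaperone Dnajb1 from 19.6, 23.7 and 18.8 to 62.6, 46.5 and 45.1 (log2 fold change 1.32 ± 0.21, adjusted p = 0.00045). Hsp90aa1 (192, 237 and 210.4 in the CNS and 197, 314 and 186 in the dLN, adjusted p = 0.75), Hsp90ab1 (adjusted p = 0.15) and Hspe1 (adjusted p = 0.24) overlapped between the tissues. Both gene groups are known to respond to warm enzymatic digestion of tissue, which the CNS and not the dLN went through, so that digestion and tissue cannot be told apart here. In cultured Th17 cells Jun stood at 10.9, Fos at 3.54 and Hspa1a at 4.16 CPM, on the scale of culture levels. The cause of the differences in these genes was not tested.

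**Figure D3:**
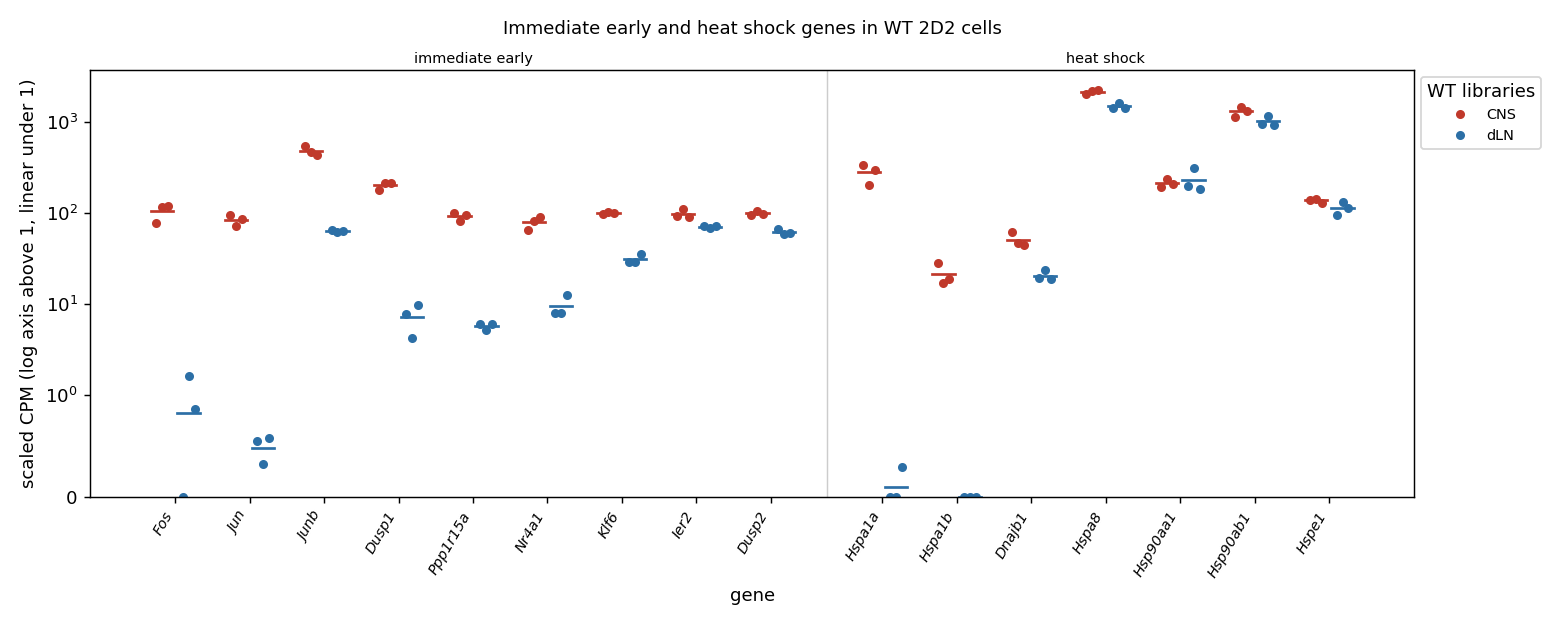
Levels of 9 immediate early and 7 heat shock genes in the 6 WT libraries (vertical axis scaled CPM, log above 1, with 0 at the base; points are libraries, bars are means of 3). Fos, Jun, Dusp1, Hspa1a and Hspa1b are near or under 10 in the dLN libraries and far above that in the CNS libraries, apart from Hspa1b at 17.3 to 28.7, while the Hsp90 genes overlap.

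The promoters of members of these groups were read from RefSeq (GRCm38.p6, 250 bases before to 50 after each start) to show the DNA next to their start sites. One is shown for the heat shock genes, one for the immediate early genes and one for the interferon-stimulated genes described below, each as the 160 bases before the start site, 5′ to 3′ on the strand of the gene. Capitals mark the motif that was searched for on both strands: GAANNTTC, the inverted pair of heat shock factor units, in Hspa1a (chr17:34972157-34972316, minus strand), the cyclic AMP response element TGACGTCA in Dusp1 (chr17:26508473-26508632, minus strand), and overlapping copies of the interferon-stimulated response element in Isg15 (chr4:156200819-156200978, minus strand).
Hspa1a: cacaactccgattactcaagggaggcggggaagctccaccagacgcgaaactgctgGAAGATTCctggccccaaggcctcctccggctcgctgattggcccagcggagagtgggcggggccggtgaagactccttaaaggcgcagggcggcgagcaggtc
Dusp1: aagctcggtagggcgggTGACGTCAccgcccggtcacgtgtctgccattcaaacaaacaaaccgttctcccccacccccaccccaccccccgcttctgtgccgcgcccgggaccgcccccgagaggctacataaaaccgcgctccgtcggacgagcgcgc
Isg15: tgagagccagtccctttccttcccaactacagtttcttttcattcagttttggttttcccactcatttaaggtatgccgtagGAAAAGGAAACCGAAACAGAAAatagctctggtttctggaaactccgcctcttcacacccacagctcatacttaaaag
The motif lay 104 to 97 bases before the start of Hspa1a, 143 to 136 before that of Dusp1 and 78 to 57 before that of Isg15. The windows of Hspa1a and Hspa1b were equal at 296 of 300 bases. GAANNTTC was in the promoters of 9 of the 12 heat shock genes that matched a RefSeq symbol, and in 9.04% of the 27025 genes in the table. TGACGTCA was in those of 3 of 21 immediate early genes (Dusp1, Btg2 and Ppp1r15a) and in 2.03% of all genes. Its inner part TGACG, which lies within the longer motif, was in 13 of 21 and in 23.0%. The interferon-stimulated response element was in those of 19 of 30 interferon-stimulated genes and in 3.99%. The FOXO motif TGTTTAC was in 4 of 15 stem-like and quiescence genes and in 4.05%. These matches describe the letters in the windows and were not tied to the expression values.

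Glycolysis genes rose together. Of 20 tested, all of them at 5 CPM or more in cultured Th17 cells, 17 were higher and 0 lower (DESeq2 17 and 0, unadjusted p under 0.05 18 and 0), with a median log2 fold change of 0.96. Aldoa, an aldolase, stood at 865, 1138 and 1040 scaled CPM in the CNS and 444, 479 and 467 in the dLN (log2 fold change 1.13 ± 0.13, adjusted p = 2.8e-05). Pkm, the pyruvate kinase, rose from 507, 573 and 471 to 787, 1110 and 927 (log2 fold change 0.86 ± 0.16, adjusted p = 0.0021), and Tpi1 from 162, 194 and 125 to 340.0, 489 and 420.1 (log2 fold change 1.38 ± 0.22, adjusted p = 0.00061). Slc16a3, the lactate exporter MCT4, rose from 6.63, 4.54 and 2.31 to 22.4, 39.4 and 38 (log2 fold change 2.87 ± 0.38, adjusted p = 9.2e-05). Gapdh stood at 2628, 3433 and 3108 in the CNS and 1803, 1995 and 1561 in the dLN (log2 fold change 0.77 ± 0.19, adjusted p = 0.012, 0.0555 without CNS library 2 and 0.059 without dLN library 3). Ldha, the lactate dehydrogenase, did not pass (1125, 1491 and 1387 in the CNS and 993, 1196 and 872 in the dLN, adjusted p = 0.14). In the cultured Th17 cells Gapdh had a mean of 11326 CPM.

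HIF targets outside glycolysis gave 5 higher of 15 tested and 0 lower (DESeq2 6 and 0, unadjusted p under 0.05 7 and 1), with a median of 0.41, and 3, 3, 2 and 3 higher without CNS library 2, CNS library 3, dLN library 1 or dLN library 3. P4ha1, a collagen prolyl hydroxylase, rose from 4.69, 6.48 and 4.62 to 25.2, 25.4 and 23.6 (log2 fold change 2.23 ± 0.27, adjusted p = 3.9e-05), whereas Mif (495, 872 and 812 in the CNS and 528, 709.7 and 444 in the dLN, adjusted p = 0.26) and Higd1a (adjusted p = 0.36) overlapped. Nuclear genes of oxidative phosphorylation stayed near the background: 4 of 46 rose and 1 fell, with a median of 0.15, and 0 rose without CNS library 2 or dLN library 1 and 1 without dLN library 3. The one that fell was Ndufa4, a subunit of cytochrome oxidase, from 340.4, 431 and 324 to 201, 239 and 218 (log2 fold change -0.74 ± 0.13, adjusted p = 0.0011). Of 13 genes encoded by mitochondrial DNA, 0 rose and 1 fell (7.69%), against 11.8 and 4.93% of all genes (DESeq2 0 and 3, unadjusted p under 0.05 0 and 6). The gene that fell was mt-Nd1, from 2442, 2619 and 2282 to 1551, 1393 and 1193 (adjusted p = 0.0078). Cholesterol synthesis genes gave 7 higher and 0 lower of 23 (DESeq2 6 and 0, unadjusted p under 0.05 12 and 0), and 2 and 3 higher without CNS library 2 or dLN library 3. Plin2, which coats lipid droplets, rose from 23.5, 11 and 23.7 to 44.3, 47.9 and 63.1 (adjusted p = 0.0027).

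Stress and amino acid genes were raised in part. Of 21 genes of ER stress and protein folding, 9 rose and 1 fell (median 0.46), against 11.8 and 4.93% of all genes. By DESeq2 or with any 1 of the 6 libraries left out, 0 fell. Atf4, the factor of the integrated stress response, rose from 34.2, 44.1 and 35.2 to 92.6, 101 and 112 (log2 fold change 1.43 ± 0.15, adjusted p = 1.2e-05), and its target Asns, the asparagine synthetase, from 13, 23.7 and 16.7 to 49.4, 64.1 and 75.3 (adjusted p = 0.00068). Xbp1 rose from 53.6, 50.3 and 50.5 to 119, 139 and 137 (adjusted p = 7.8e-05). The chaperones Hspa5 (317, 311 and 347 in the CNS and 217, 265 and 211 in the dLN, adjusted p = 0.085), Hsp90b1 (adjusted p = 0.92) and Calr (adjusted p = 0.31) did not pass. Slc3a2, the heavy chain of amino acid transporters, rose from 79, 72.6 and 65.5 to 161, 179 and 200.2 (log2 fold change 1.31 ± 0.15, adjusted p = 2.2e-05). The ferritin chains, which store iron, rose with little spread between libraries: Fth1 stood at 1544, 1604 and 1597 against 756, 762 and 868 (log2 fold change 0.99 ± 0.18, adjusted p = 0.0013) and Ftl1 at 1250, 1391 and 1408 against 551, 557 and 629 (log2 fold change 1.22 ± 0.12, adjusted p = 9.8e-06). Both are also abundant in macrophages, and the part of macrophage RNA in them was not tested.

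Few or no genes of cell division were called between the tissues in WT cells, depending on the fit. Of 37 DNA replication genes and 36 mitosis genes, 0 were called in either direction by edgeR, 0 by DESeq2 and 0 at an unadjusted p under 0.05, and their median log2 fold changes were -0.24 and -0.10. The fit of the 6 WT libraries alone called 1 DNA replication gene and 2 mitosis genes lower in the CNS, and 2 and 2 with a replicate block. Mcm6, part of the replicative helicase, stood at 129.8, 158 and 140.2 in the CNS and 143, 163 and 109 in the dLN, and Cdk1, the kinase of mitotic entry, at 88.2, 96.4 and 95.2 in the CNS and 88.1, 123 and 67.5 in the dLN. The CNS values lay within the spread of the dLN libraries for Cdk1, and dLN library 2 was the highest dLN library for both. A p that misses the threshold does not show that division was equal, and the spread between the dLN libraries limits what could be seen. The cell cycle inhibitor Cdkn1a (p21) rose from 11, 9.73 and 5.48 to 75.6, 86.9 and 98.2 (log2 fold change 3.31 ± 0.30, adjusted p = 2.9e-06). Of 76 cytosolic ribosomal protein genes, 1 rose (Rpl39, adjusted p = 0.048, lost without any CNS library, dLN library 1 or dLN library 2) and 0 fell (DESeq2 3 and 1, unadjusted p under 0.05 4 and 1), and the median was 0.02. Eif4ebp1, a brake on translation, rose from 22.9, 19.8 and 30.3 to 74.7, 103 and 126 (log2 fold change 2.05 ± 0.28, adjusted p = 0.00014).

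Of 40 interferon-stimulated genes tested, 13 rose and 0 fell (DESeq2 16 and 0, unadjusted p under 0.05 19 and 0), with a median log2 fold change of 0.82. Of the 26 at 5 CPM or more in culture, 9 rose. Oas1a, an antiviral enzyme, stood at 26.2, 23.7 and 19 in the CNS and 6.35, 5.84 and 6.06 in the dLN (log2 fold change 1.91 ± 0.22, adjusted p = 3.4e-05), and Mx1 at 22.4, 15.2 and 23.9 in the CNS and 3.59, 5.19 and 4.33 in the dLN (adjusted p = 0.0026). Zbp1, a nucleic acid sensor, rose from 35.1, 24 and 30.02 to 82.8, 75 and 70.9 (adjusted p = 0.0028). Ifi47, an interferon gamma-induced GTPase, overlapped (153, 155 and 161 in the CNS and 142, 147 and 187 in the dLN, adjusted p = 0.96). Glucocorticoid-induced genes gave 4 higher and 1 lower of 16, against 11.8 and 4.93% of all genes, and 2 higher without CNS library 1. The lower one was Il7r. The widest rise among the glucocorticoid-induced genes (log2 fold change 4.79) was that of Dusp1. It is also on the immediate early list, for which digestion and tissue cannot be told apart. The receptor gene itself, Nr3c1, stood at 18.7, 11.6 and 10.2 in the CNS and 6.63, 5.84 and 5.48 in the dLN (log2 fold change 1.17 ± 0.28, adjusted p = 0.01, 0.052 without CNS library 1). Its direct targets Tsc22d3 (58.2, 85.2 and 103 in the CNS and 76.5, 100.2 and 133 in the dLN, adjusted p = 0.45) and Fkbp5 (14.5, 28.6 and 20.8 in the CNS and 18.2, 19.5 and 11 in the dLN, adjusted p = 0.53) overlapped between the tissues.

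Cytotoxic granule genes gave 6 higher of 16 tested and 0 lower (DESeq2 7 and 0, unadjusted p under 0.05 9 and 0). Nkg7, a granule membrane protein, stood at 651, 459 and 520.2 scaled CPM in the CNS and 87.5, 43.1 and 90.3 in the dLN (log2 fold change 2.88 ± 0.48, adjusted p = 0.00071), and Ctsw, a lymphocyte cathepsin, at 527, 332 and 332 in the CNS and 66.8, 48 and 65.5 in the dLN (log2 fold change 2.72 ± 0.41, adjusted p = 0.00035). The groups did not overlap for either gene. Markers of CD8 T cells and NK cells, which also make granule genes, summed to 41.1 to 48.0 scaled CPM in the CNS and 20.1 to 34.8 in the dLN, without overlap. Of the 6 of these markers tested, 1 rose and 0 fell, against 11.8 and 4.93% of all genes. The part of CD8 T and NK cells in the granule gene changes was not tested. Gzma, a granule protease, stood at 35.2, 50.5 and 40.2 in the CNS and 8.01, 14.3 and 18.8 in the dLN and missed the threshold (adjusted p = 0.065). Of 19 annexin, S100 and AHNAK genes, 6 rose and 0 fell (DESeq2 7 and 0, unadjusted p under 0.05 8 and 1), among them Lgals3, galectin-3, from 67.4, 28.9 and 49.6 to 178, 183 and 196 (log2 fold change 1.93 ± 0.42, adjusted p = 0.0055), a gene that macrophages also express strongly. S100a4 (846, 489.8 and 496 in the CNS and 201, 188 and 232 in the dLN) and S100a6 (1074, 868 and 838 in the CNS and 444, 477 and 461 in the dLN) passed narrowly (adjusted p = 0.043 and 0.04), and both calls were lost when any 1 of the 6 libraries was left out.

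**Figure D4:**
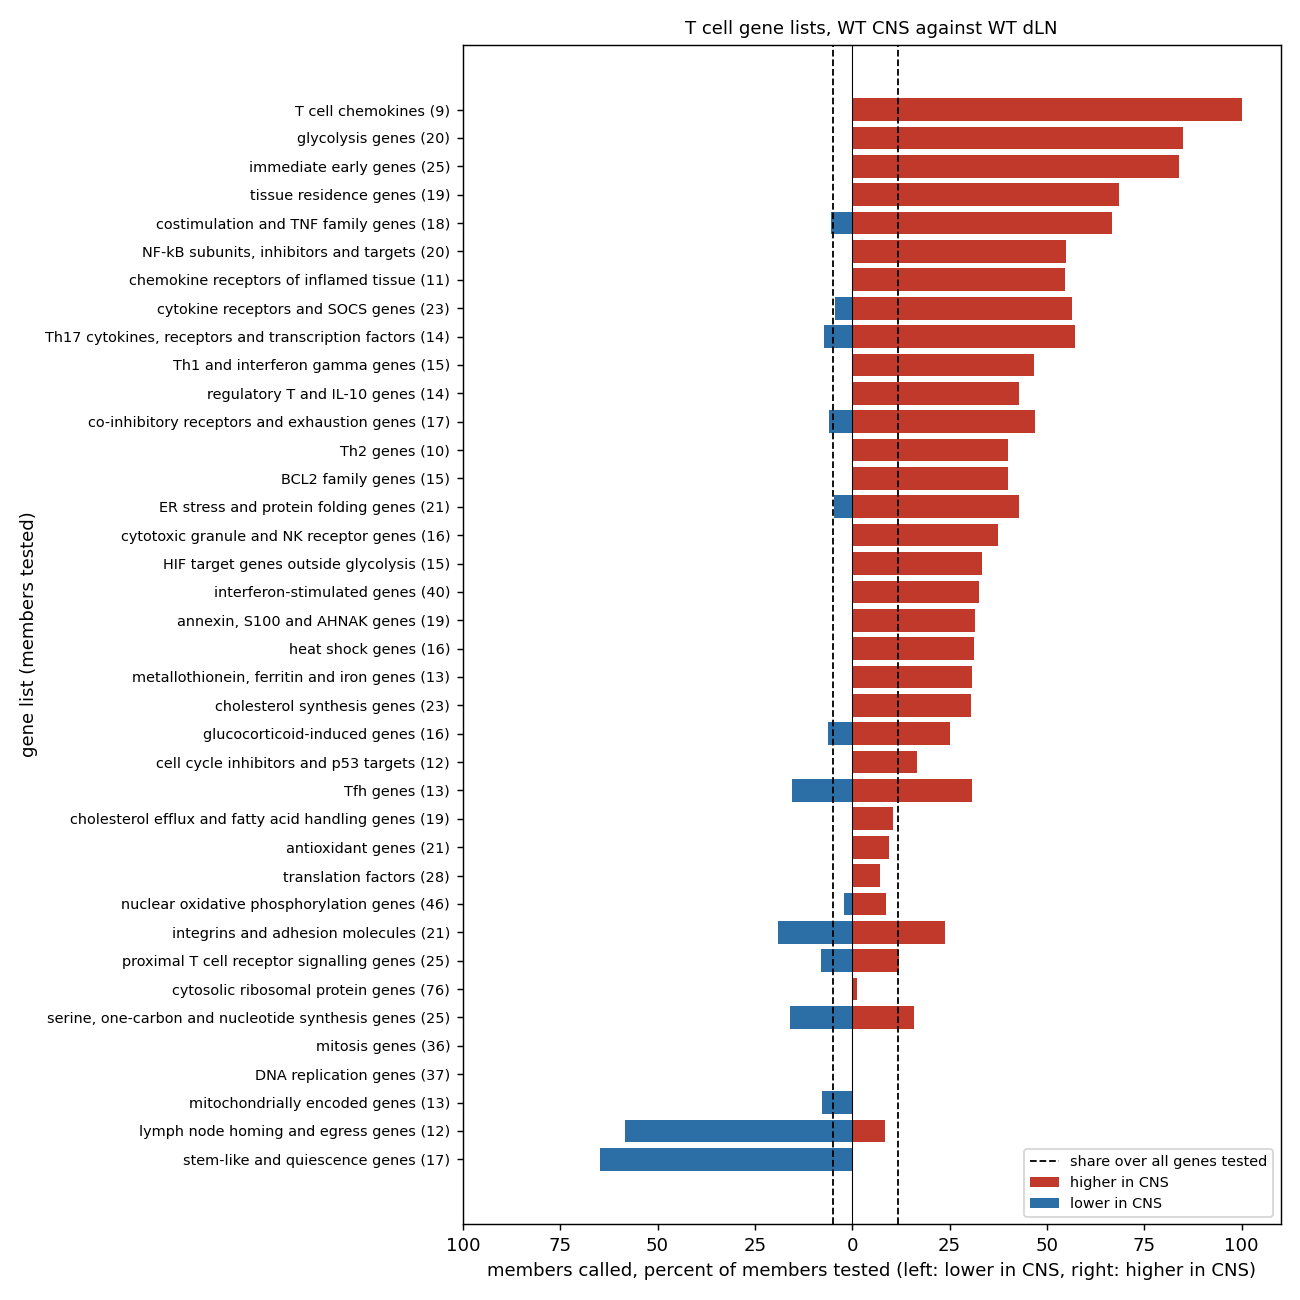
Share of the tested members of 38 T cell gene lists that were called higher (right, red) or lower (left, blue) in WT CNS cells, as percent of members tested (number in brackets). Dashed lines mark the shares over all genes, 11.8% higher and 4.93% lower. Stem-like and homing genes stand out to the left, and chemokines, glycolysis, immediate early and residence genes reach furthest to the right.

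The genes with the widest rises among those of cultured Th17 cells were, beside Ccl3, Ccl4, Jun, Il1rn, Rgs16 and Lag3, Spp1, Ctsl, Cd63, Syngr1, Lgmn and Plek. Several of these belong to lysosomes and to activated microglia. Lgmn, the protease legumain, stood at 211, 262 and 228 scaled CPM in the CNS and 2.76, 5.51 and 6.06 in the dLN, against 5.34 CPM in cultured Th17 cells (log2 fold change 5.62 ± 0.34, adjusted p = 6.5e-08). Ctsl, cathepsin L, stood at 93.6, 128 and 131 in the CNS and 0.276, 1.62 and 0.866 in the dLN, against 10.01 in culture. Cd63, a lysosomal tetraspanin, stood at 80.7, 118 and 94.3 in the CNS and 0.828, 0 and 1.44 in the dLN, against 8.96 in culture. These 3 genes were low both in the dLN and in culture. Spp1, which encodes osteopontin, stood at 31.6, 104 and 89.4 in the CNS and 0.828, 0 and 0 in the dLN, a ratio of 249 (95% counting interval 85 to 1209), and at 96.7 CPM in culture. Plek, pleckstrin, stood at 25.3, 26.6 and 21.8 in the CNS and 1.38, 0 and 0 in the dLN and at 74.1 in culture. Syngr1 stood at 21.6, 22.5 and 21.4 against 0, 0 and 0.866, and Il1rn, the IL-1 receptor antagonist, at 29, 30.04 and 27.6 in the CNS and 0, 0.324 and 0.577 in the dLN and 10.5 in culture.

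Markers of myeloid cells were counted at high levels in the CNS libraries. Each of 25 microglia and macrophage markers was higher there, with a median log2 fold change of 6.33, or 6.20 with genes at 0 in the dLN set to their bound. The summed level did not overlap between the tissues (exact permutation p = 0.1, two-sided, adjusted p = 0.125 over 15 library measures, where 0.1 is the smallest p that 3 against 3 allows). C1qa, a complement component of microglia, stood at 476, 544 and 407 scaled CPM in the CNS and 0, 0.324 and 0.866 in the dLN, and Apoe at 682, 1264 and 899 in the CNS and 7.45, 9.4 and 28.3 in the dLN. Monocyte and neutrophil markers (9 of 15 higher, 0 lower) summed to 981 to 2202 and 313 to 371, with Arg1 at 155, 545 and 509 against 1.66, 0 and 0.577 and Il1b at 26, 56.8 and 45.3 against 0, 0 and 0. CNS library 1 was the lowest CNS library for both. Dendritic cell and MHC class II genes (12 of 18 higher, 0 lower) summed to 2839 to 3520 and 146 to 435, with H2-Ab1 at 747, 1021 and 787 against 110.4, 27.9 and 83.4. Among genes under 1 CPM in culture, Ccl24, Ttr, Olfml3, Hspa1b, Tff1, Cx3cr1 and Sparc had the widest rises beside Il1b, C1qa and Arg1, and 0 genes fell by the same rule. Ttr, a protein of the choroid plexus, was carried by CNS libraries 1 and 3 (115, 0.616 and 337) and was listed at 0 in the dLN libraries. Its call (adjusted p = 0.031) was lost without any library but CNS library 2. Olfml3, a microglia gene, stood at 21.9, 31.6 and 23.9 in the CNS and 0, 0 and 0 in the dLN, at least 87.6-fold higher.

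Markers of oligodendrocytes, astrocytes and neurons summed to less than those of myeloid cells. Oligodendrocyte and myelin markers summed to 222 to 296 scaled CPM in the CNS and 128 to 167 in the dLN, without overlap. Most of that difference lay in Trf alone, whose levels are given below, so it does not describe the list as a whole. Mog, which defines mature oligodendrocytes, was listed at 0 in each of the 6 libraries, and 4 of the 17 oligodendrocyte and myelin markers were. Of the 7 tested, 4 rose and 0 fell, and 2 rose without dLN library 3. Mbp, the myelin basic protein gene, whose locus also makes transcripts in immune cells, stood at 35.4, 38.8 and 35.3 in the CNS and 38.9, 29.8 and 36.7 in the dLN (adjusted p = 0.88), and Trf, transferrin, at 74.4, 131 and 111 in the CNS and 1.1, 2.59 and 6.93 in the dLN (adjusted p = 9.2e-06). Astrocyte markers summed to 23.6 to 29.0 scaled CPM in the CNS and 1.3 to 5.48 in the dLN, and neuron markers to 3.84 to 9.80 and 2.60 to 3.89. B cell markers went the other way. Of 13 B cell and plasma cell markers tested, 7 were lower in the CNS and 0 higher (DESeq2 6 and 0, unadjusted p under 0.05 9 and 0), and 4 were lower without CNS library 2. Cd79a, part of the B cell receptor, stood at 1.32, 0.616 and 0.548 in the CNS and 11.3, 2.59 and 11.5 in the dLN. The part of RNA from other cells in the T cell results was not tested. The identity genes of CD4 T cells gave 2 higher of 14 and 0 lower (DESeq2 2 and 0, unadjusted p under 0.05 3 and 0), with a median log2 fold change of 0.25, against 11.8% higher over all genes. Of these, 0 were higher without CNS library 1 and 1 without CNS library 2, CNS library 3 or dLN library 2. In bulk RNA, a change in the share of cells that express a gene and a change in the RNA per cell cannot be told apart.

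**Figure D5:**
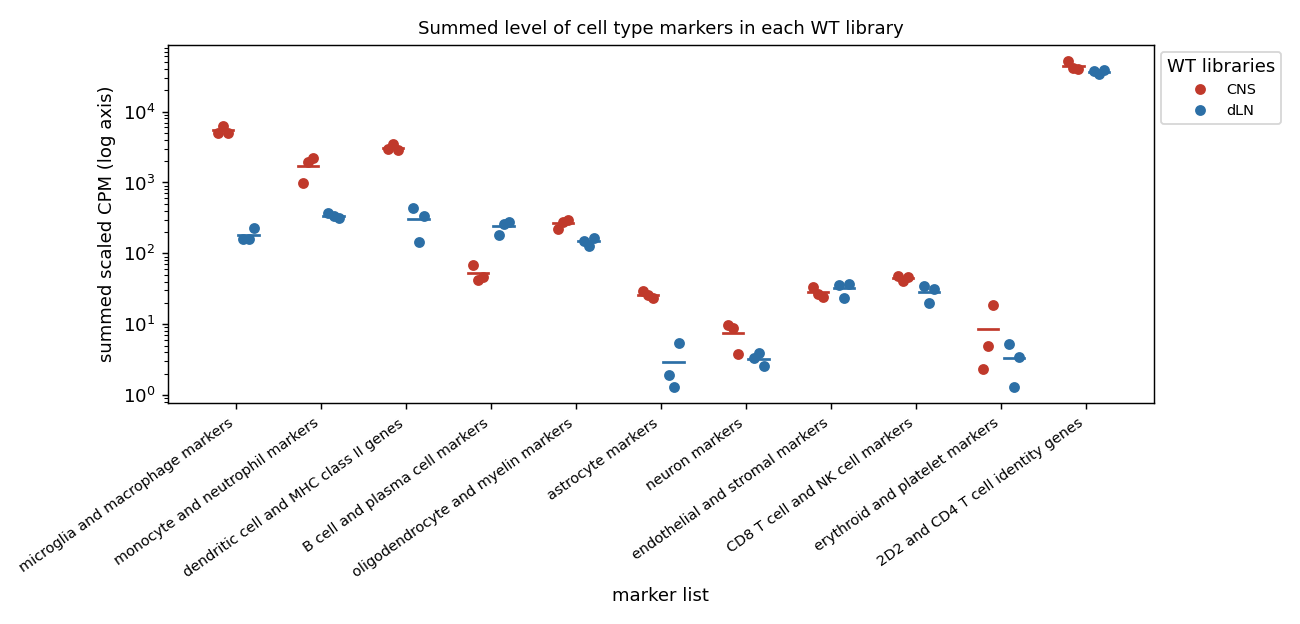
Summed scaled CPM (log axis) of the markers of 10 other cell types and of CD4 T cell identity genes in each of the 6 WT libraries (points are libraries, bars are means of 3). Microglia and macrophage sums (4998 to 6329 against 159 to 229), MHC class II sums and astrocyte sums are higher in the CNS, B cell sums are higher in the dLN, and endothelial sums overlap.

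The same contrast in CHD1 cKO cells gave 2854 genes higher in the CNS (24.6%) and 2626 lower (22.7%), and the median absolute log2 fold change over all genes was 0.557, against 0.355 in WT. The cKO groups had 4 libraries each and the WT groups 3, so the counts do not compare directly. Of the 1367 WT genes higher in the CNS, 1223 (89.5%, which is 42.9% of those of the cKO) were also higher in the cKO, and 3 were lower. Of the 571 lower genes, 470 (82.3%, or 17.9% of those of the cKO) were also lower and 1 was higher. Il17f, at 2.19, 15.9 and 3.11 in the WT CNS, ran from 0 to 1.18 in the cKO CNS and from 0.563 to 2.08 in the cKO dLN, and the difference between genotypes did not pass the test (adjusted p = 0.093). In cKO cells, 26 of 37 DNA replication genes and 33 of 36 mitosis genes were called higher in the CNS, with medians of 0.91 and 1.36. The edgeR test of the difference between genotypes called 13 of 11589 genes (0.112%), none of them a DNA replication or mitosis gene. DESeq2 called 563, and their members in these lists are not reported here. As the number of calls depends on the fit, the lack of calls does not show that division genes responded alike in both genotypes. S1pr1 (log2 fold change -2.96 ± 0.27 in cKO and -2.88 ± 0.32 in WT) and Rgs1 (4.06 ± 0.26 and 3.46 ± 0.29) did not pass the test of the difference (adjusted p = 0.945 and 0.384).

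WT cells of the GR experiment offer a second set of CNS libraries from another table, without a lymph node group. They went through the same collagenase digestion as the CHD1 CNS libraries, so digestion and tissue cannot be told apart here either. On a scale that leaves repeat and ribosomal RNA out of the total, S1pr1 ran from 8.89 to 29.3 CPM there, from 13 to 15.9 in the CHD1 WT CNS and from 107 to 128 in the CHD1 WT dLN. Jun ran from 97.7 to 340.0, 106 to 139.7 and 0.546 to 0.938, and Lag3 from 134 to 256, 159 to 225 and 6.01 to 7.51. For these 3 genes the GR WT CNS range lay apart from the dLN range, on the side of the CHD1 WT CNS libraries. Ifng ran higher in the GR WT CNS libraries (63.5 to 163, against 30.1 to 34.8 and 0.469 to 3.28), and Csf2 ran from 0 to 0.435. The tables were normalized separately, and no test was made across them.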

How the data were processed

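RNA was sequenced with a modified SMART-Seq2 protocol, per the labels. The authors deposited expected counts by gene symbol, for which the submitters' processing notes name RSEM 1.3.3 and mm10. All values were whole, so rounding changed none. Annotation and strand setting: not given in the sources used here. CNS and dLN tables of the CHD1 cells were merged on symbols, and groups came from the labels. No molecular identifiers are named.

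The 14 CHD1 libraries were fitted together in R 4.3.3 with edgeR 4.0.16 (filterByExpr at a minimum count of 10 and total of 15, TMM scaling, quasi-likelihood F test). The value after ± beside a log2 fold change is its SE, and every adjusted p of a gene is from that test with Benjamini-Hochberg adjustment over all genes tested. A fold against a group at 0 allowed 3 counts over the group, and a group with 1 to 3 counts got a ratio with an exact 95% counting interval. The code was tested on simulated data. Alternatives were DESeq2 1.42.0, its size factors, other filters, a fit of the 6 WT libraries, a replicate block, removal of repeats, equal depth, scaling on genes of cultured cells, and leaving out each WT library. Pairs of libraries within a group differed by more than sampling noise (chi-square per degree of freedom at least 6.27). Gene positions came from GENCODE M21, which held 30532 of 31053 symbols (98.3%).

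Members and the 49 gene lists were chosen with earlier results of these data known. Genes were named by a rule: per direction, the 12 largest called changes without overlap at a group mean of at least 20 scaled CPM among genes at 5 CPM or more in cultured cells and outside the lists of other cells, and the 10 largest among genes under 1 CPM there. Predicted, mitochondrial, repeat, sex and antigen receptor genes were left out of these. From each list described, up to 6 members with the highest level and 4 with the smallest p were eligible, and Il17a, Il17f, Il22, Csf2, Ifng, Tbx21, Il23r, Nr3c1, Chd1, Fkbp5, Tsc22d3, Klf2, S1pr1, Ccr7 and Cd69 always. Some genes that the rule covers are not reported here. Isg15, Btg2 and Mog were named outside the rule for the promoters and as a marker.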

Additional observations from a re-analysis of the deposited data

Results flagged for a closer look

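The tissue difference of 2 genes that the text could name, Ccl1 and Cd8b1, differed between WT and cKO cells in the test of that difference itself. The stem-like, ER stress and ribosomal protein lists each held 1 further called gene. These were Lef1 (-1.73 on the log2 scale, adjusted p = 0.047), Sdf2l1 (1.98, adjusted p = 0.039) and Rpl23 (-0.76, adjusted p = 0.047). Ccl1 rose more in cKO cells, by 3.32 on the log2 scale (adjusted p = 0.030). WT CNS libraries stood at 603, 361 and 424 scaled CPM and WT dLN libraries at 30.6, 22.4 and 17.3. The cKO CNS libraries ran from 354 to 1033 and the cKO dLN libraries from 3.12 to 4.31, so the cKO dLN values were the low ones. Cd8b1, a marker of CD8 T cells, had a difference of -3.97 (adjusted p = 0.030). Its level was 22.1 to 26.5 in WT CNS, 14.3 to 21.5 in WT dLN and 16.5 to 28.5 in cKO CNS libraries, but 99.9 to 444 in the cKO dLN libraries. The calls of Ccl1 and Cd8b1 held in the fits with all libraries and were lost without any WT library other than dLN library 3. Their adjusted p then ran from 0.071 to 0.094 for Ccl1 and from 0.059 to 0.105 for Cd8b1.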

How the results depend on the processing

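Leaving out 1 WT library at a time gave 1311 to 1496 genes called in WT cells and 5387 to 5564 in cKO cells. Keeping genes with a mean of at least 10 CPM gave 1163 called genes in WT and 3335 in cKO cells, with fewer genes tested. The difference between genotypes gave 13 called genes, against 563 with DESeq2, 7 with DESeq2 size factors, 172 without a filter on low counts and 92 with the 10 CPM filter. It gave 24 without WT dLN library 3 and 0 without each of the other WT libraries. With a replicate block it called 52, and the block gave 1705 called genes for WT in the 14 libraries and 2024 in the 6 WT libraries. The shared replicate numbers are not said to mark animals, and deviations of same-numbered WT libraries correlated at 0.025, 0.078 and 0.009, and not every library correlated best with its own number. No named gene changed sign in an alternative where it was called in the main fit or in that alternative. Sign changes of genes called in neither fit were not counted. Leaving out 1 library lost between 24 and 32 calls of 357 named genes tested, and removing repeats with equal depth lost 12. Depth limits low genes most, since 3 counts are worth up to 0.973 scaled CPM in the dLN.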
